A study of Mus musculus with 8 samples.

Results

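The TF group holds skeletal myogenic progenitors isolated fresh from teratomas, which are tumors of many tissues formed by pluripotent stem cells after implantation into a mouse. It comprises 2 of the 8 RNA-seq libraries of the series, was taken from the sample labels, and was compared with the mean of the other 3 groups (TE, SF and SE), each of which also has 2 libraries. To obtain TF cells, embryonic stem cells (ESCs) of the mouse line E14-EGFP were implanted into irradiated tibialis anterior muscles of NSG-mdx4Cv mice after injury with cardiotoxin. These hosts lack dystrophin as well as mature T, B and NK cells but still have myeloid cells. Cells carrying EGFP were then sorted by flow cytometry for the absence of CD31 and CD45 and the presence of alpha7-integrin and VCAM-1. TE cells were such progenitors cultured on gelatin to passage 8, SF cells were satellite cells freshly sorted from adult muscle, and SE cells were satellite cells cultured to passage 8. All TF and TE cells descend from 1 ESC line, and the strain, sex and age of the mice that gave the satellite cells are not given in the sources used here.

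Satellite cells are the resident stem cells of skeletal muscle and are marked by the transcription factor PAX7. When activated, they express MYF5 and MYOD1, which commit them to the muscle lineage, and later myogenin (MYOG) as they differentiate and fuse into fibers. Progenitors from a teratoma carry the same surface markers but arise within a tumor that also forms epithelia, cartilage, bone and neural tissue. The contrast of TF with the other 3 groups asks which genes and programs are particular to these cells when they are neither adult nor cultured.

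Levels of single genes are given as normalized counts, that is, estimated read counts divided by the median-ratio size factor of the library, with replicate 1 before replicate 2. Differences are given on the log2 scale as TF minus the mean of the 3 other group coefficients in a single edgeR quasi-likelihood fit, with a Benjamini-Hochberg adjusted p over all genes tested. The standard error (SE) printed beside a difference is its absolute value divided by the square root of its F statistic. A gene was called when its adjusted p was below 0.05 and its change exceeded 25% (as the ratio of the higher to the lower level). It was termed set apart when, in addition, both TF libraries lay above (or both below) all 6 other libraries. A group was taken to be at the limit of detection when each of its libraries had at most 3 counts, and ratios against such a group are lower bounds that cover counting error only.

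The libraries held between 11930961 and 21146632 estimated counts, with the TF libraries the smallest at 11930961 and 12178480. Replicate libraries of a group spread beyond counting noise in every group, with a chi-square per degree of freedom of 30.7 in TF, 12.1 in TE, 53.4 in SF and 93.0 in SE. SF replicate 1 stood apart from the other libraries, since 88.6% of the genes in the table had a count in it against 61.7% to 71.9% in the other 7. Among genes of low level the shares were 86.9% against 7.67% to 21.8%. The ribosomal RNA precursor Rn45s took 12.1% and 7.99% of the counts in TF and 17.0% to 21.3% in the other libraries. The median log2 difference over the 17582 genes tested was 0.17, and 0.11 with undetected groups set at the limit.

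Fresh teratoma-derived cells differed from the other groups mainly by genes that were higher. Of the 17582 genes tested, 2966 (16.9%) were called higher in TF and 1048 (5.96%) lower. TF lay above all 6 other libraries in 1915 genes (10.9%) and below them in 1188 (6.76%) before any test. Genes that were both called and set apart numbered 1471 higher (8.37%) and 627 lower (3.57%). Among the 2966 genes called higher, the TF mean was the highest of the 4 group means in 2030 and lay between others in 936 (31.6%). Among the 1048 called lower, it was the lowest in 806 and between others in 242 (23.1%).

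An example of the second kind is H19, an imprinted noncoding RNA of fetal tissues, which had 4740.1 and 1299 in TF, 0 in both TE libraries, 656 and 490.3 in SF and 126010.0 and 281167 in SE normalized counts. It was called higher in the contrast although both SE libraries were far above TF, because the contrast averages the other groups on the log scale and TE was at 0. For this reason the account below gives the number of genes set apart beside the number called. List counts below are to be read against all genes tested, of which 16.9% were called higher and 5.96% lower. The shares set apart were 8.37% higher and 3.57% lower, and the median log2 difference was 0.17.

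The group nearest to TF among the 1471 genes set apart higher was SF in 973 (66.1%), TE in 245 and SE in 253, where over all genes tested SF was the highest of the 3 other groups in 53.2%. The median TF mean was 2.12 times the highest other group mean, and the tenth part of genes with the largest ratios exceeded 12.0. TF replicate 1 was more than 2 times TF replicate 2 in 177 of these genes (12.0%), and the reverse held in 38 (2.58%). Over all genes tested these shares were larger, at 16.7% and 10.7%. The 627 genes set apart lower differed less, with the lowest other group mean at a median of 1.61 times the TF mean. In 45 of the genes set apart higher every other group was at the limit of detection, and in 24 of those set apart lower TF was.

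Taken singly, TF against TE gave 2848 genes higher (16.2%) and 1733 lower (9.86%), TF against SF gave 2655 (15.1%) and 1606 (9.13%), and TF against SE gave 2544 (14.5%) and 1611 (9.16%). These 3 comparisons share the TF libraries and are given side by side only. The counts rested on both TF libraries, since without TF replicate 1 the contrast called 1731 genes higher and 508 lower, and without TF replicate 2 it called 2019 and 443. Without TF replicate 2 the genes set apart lower numbered 334, and without TF replicate 1 they numbered 389. With the 6 other libraries entered as a single group, so that the differences among TE, SF and SE counted as spread, 31 genes were called higher and 1 lower.

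**Figure D1:**
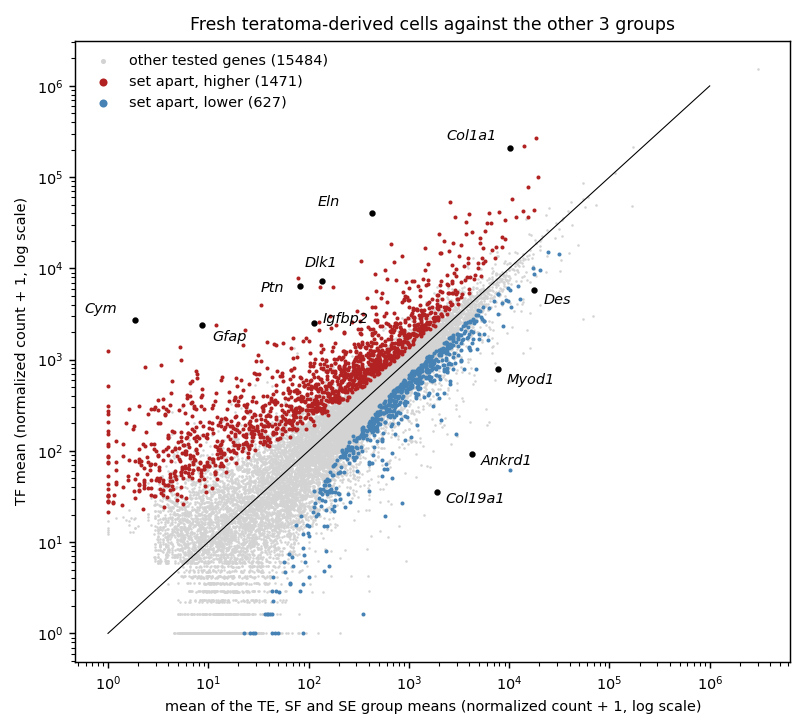
Mean of the TF libraries (vertical axis) against the mean of the TE, SF and SE group means (horizontal axis), both as normalized count + 1 on log scales, 1 point per tested gene, with the diagonal marking equal levels. Red points are the 1471 genes set apart higher, blue points the 627 set apart lower, and named genes are in black. The red points reach much further from the diagonal than the blue ones.

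Genes of epithelia, glands and glia led the genes furthest above every other library. Among the 15 with the largest gap were the keratins Krt17 and Krt6a, the digestive enzymes Cym (chymosin), Amy2a5 (a pancreatic amylase) and Prss2 (a trypsin), the mucosal proteins Olfm4 and Dmbt1, and the astrocyte genes Mlc1 and Gfap. The growth factor Ptn (pleiotrophin), the angiotensin receptor Agtr2, the complement regulator Cfi and the genes Plac8, Capsl and Gpr50 completed the set. Krt17 (chromosome 11, 100256215 to 100261029, by RefSeq on GRCm38.p6, as for all positions here) had 286 and 220.2 normalized counts in TF and 0 in all 6 other libraries, which puts TF at least 69.8-fold higher (adjusted p = 0.00023). Mlc1 (chromosome 15, 88955884 to 88982693) had 197 and 354 in TF and 0 elsewhere, at least 76.2-fold higher (adjusted p = 0.000212). For Cym (chromosome 3, 107211295 to 107221732) the values were 4312 and 1098 in TF, 0 in both TE libraries, 5.1 and 0 in SF and 0 in both SE libraries. The only count of Cym outside TF was thus in SF replicate 1, and the TF replicates differed from each other by a large factor.

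That difference between the TF replicates was larger still for Amy2a5, with 2337 and 138 normalized counts in TF and 0 elsewhere. It ran the other way for Gfap (chromosome 11, 102887336 to 102897200), with 1342 and 3499 in TF, 0 in both TE libraries, 22.9 and 18.2 in SF and 2.86 and 1.72 in SE. By the rule that picked these genes, both TF libraries lay above all others for each, and the TF mean of Gfap was 118 times the SF mean. Ptn, a secreted factor, was even between the TF replicates at 6014 and 6743, against 46.5 to 117 in the other 6 libraries, a log2 difference of 6.34 ± 0.25 (SE; adjusted p = 6.36e-07). Without TF replicate 1 the adjusted p was 0.084 for Capsl, 0.16 for Prss2 and 0.075 for Gpr50, and Gpr50 also missed the threshold without TF replicate 2 (adjusted p = 0.098). Amy2a5, Prss2 and Krt6a have close paralogs among which the counting program may have divided reads, so their single values are uncertain.

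The genes furthest below every other library included muscle genes. Col19a1 (chromosome 1, 24257683 to 24587922), which encodes a minor collagen, had 40.2 and 28.3 in TF, 1078 and 1209.6 in TE, 2157 and 2594 in SF and 2508 and 1849 in SE normalized counts, a log2 difference of -5.70 ± 0.28 (SE; adjusted p = 1.37e-06). Ankrd1, an ankyrin repeat protein of striated muscle, had 118 and 64 in TF, 3585 and 3043 in TE, 2065 and 2512 in SF and 7387 and 6930.2 in SE, a difference of -5.36 ± 0.30 (SE; adjusted p = 2.64e-06). Myod1 (chromosome 7, 46376474 to 46379092), the muscle commitment factor, ranked next with 637 and 930.2 in TF, 4826 and 4819 in TE, 6767 and 8837 in SF and 10502 and 10701 in SE. The Myod1 difference was -2.68 ± 0.24 (SE; adjusted p = 6.07e-05) against TE, -3.16 ± 0.25 (SE; adjusted p = 0.000111) against SF and -3.79 ± 0.26 (SE; adjusted p = 1.30e-05) against SE.

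Others among these were Mrm3, Rras2, Kantr, Hgh1, Speg, E030011O05Rik, Klhl30, B3galt2, Hmga1, Sema3d and Epha1. Rras2, a Ras-related GTPase, had 192 and 189 in TF and 724 to 1767 elsewhere. Speg, a kinase of striated muscle, had 387 and 449 against 1379 to 3728. Hmga1, which encodes a chromatin protein of proliferating and embryonic cells, fell from 461 to 9526 in the other libraries to 131 and 169.8 in TF, with SE the highest. In each case the groups did not overlap. The call for the noncoding RNA Kantr was lost without either TF library (adjusted p = 0.16 and 0.12), without either TE library (0.083 and 0.070) and without SE replicate 1 (0.067), and that for E030011O05Rik without TF replicate 1 (0.10).

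**Figure D2:**
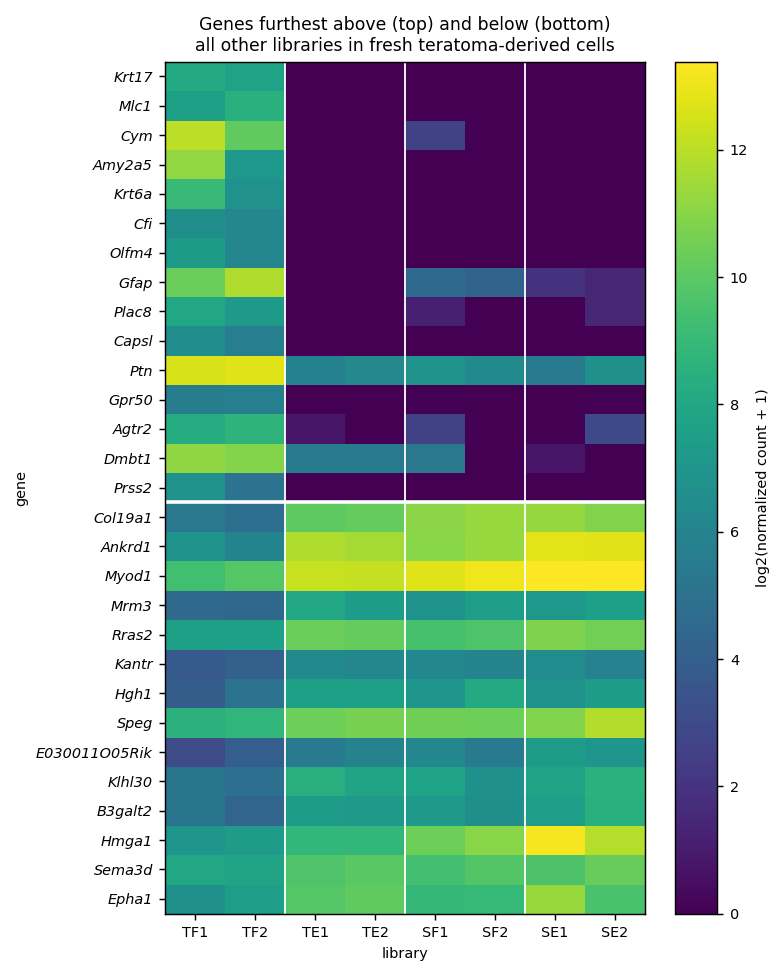
Levels in each of the 8 libraries (columns) of genes furthest above (upper block) and furthest below (lower block) all other libraries in TF (rows), as log2(normalized count + 1) on the color scale. By the choice of genes, the upper rows are brighter in the TF columns than in the rest, and the lower rows show the reverse, with Myod1 at 637 and 930.2 normalized counts in TF.

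The promoters of the first listed genes that had an entry and could be shown are printed here so that the start regions of genes at both ends of the contrast can be seen. They are RefSeq sequences on GRCm38.p6 that run from 250 bases before to 50 bases after the annotated start, as the table gives it, read 5′ to 3′ on the strand of the gene, which is the minus strand in all 3. For Mlc1 and Col19a1 this start lies inside the span given above for the whole gene, so other transcripts of these genes start elsewhere. Capitals mark the only searched motif found, on either strand, among CAGCTG (an E-box bound by MYOD1-type factors), CACGTG (an E-box bound by MYC-type factors), TGACTCA (bound by AP-1), CCAAT (bound by NF-Y), TATAAA (the TATA box) and GGGCGG (bound by SP1-type factors). In Mlc1 (chr15:88978504-88978803) the capitals are CCAAT on the opposite strand, in Cym (chr3:107221683-107221982) they are TATAAA, and Col19a1 (chr1:24587388-24587687) held none of the 6.
Mlc1: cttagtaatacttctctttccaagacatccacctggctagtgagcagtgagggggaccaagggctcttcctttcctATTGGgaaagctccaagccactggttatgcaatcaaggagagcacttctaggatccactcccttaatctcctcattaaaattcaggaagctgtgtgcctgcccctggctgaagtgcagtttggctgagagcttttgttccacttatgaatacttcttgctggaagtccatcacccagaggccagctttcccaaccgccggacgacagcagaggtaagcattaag
Cym: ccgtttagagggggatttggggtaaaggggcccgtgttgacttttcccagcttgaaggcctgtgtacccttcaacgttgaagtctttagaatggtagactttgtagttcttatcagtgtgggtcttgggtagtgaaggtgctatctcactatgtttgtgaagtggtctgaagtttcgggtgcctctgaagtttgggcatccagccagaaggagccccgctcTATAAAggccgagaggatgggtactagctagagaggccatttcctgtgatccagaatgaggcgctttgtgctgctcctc
Col19a1: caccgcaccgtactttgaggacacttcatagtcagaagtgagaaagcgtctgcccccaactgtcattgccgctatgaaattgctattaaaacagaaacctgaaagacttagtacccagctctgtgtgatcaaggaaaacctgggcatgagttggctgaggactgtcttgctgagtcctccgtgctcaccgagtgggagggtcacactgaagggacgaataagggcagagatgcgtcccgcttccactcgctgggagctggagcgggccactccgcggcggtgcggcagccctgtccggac

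Over the promoters that the table holds, CAGCTG was present in 18.7% of the 1077 genes set apart higher and 12.0% of the 485 set apart lower, against 16.0% of the 13416 promoters of tested genes. CACGTG was present in 8.08% and 13.8%, against 9.51%. TGACTCA was found in 3.44% and 4.12%, against 4.14%, and CCAAT in 35.1% and 33.0%, against 38.1%. TATAAA was found in 9.94% and 6.80%, against 8.42%, and GGGCGG in 63.1% and 63.3%, against 58.0%. The shares of both E-boxes and of the TATA box thus lay on opposite sides of the share over all promoters in the 2 gene sets. A match is a stretch of letters and not a binding site.

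The label of the group was checked against the genes of its sort and of the lineage. Pax7 was present in both TF libraries at levels that overlapped those of SF, with 3067 and 4914 in TF, 1503 and 1241 in TE, 4046 and 4581 in SF and 1743 and 1174 in SE normalized counts (log2 difference 0.98 ± 0.21 (SE; adjusted p = 0.0081)). Its difference from SF was 0.05 ± 0.27 (SE; adjusted p = 0.926), and the call in the contrast was lost without TF replicate 2 (0.58, adjusted p = 0.20). Itga7, the gene of alpha7-integrin, had 2354 and 3118 in TF, 4721 and 5074 in TE, 2810.2 and 3865 in SF and 3648 and 5761 in SE and was not called (-0.61 ± 0.23 (SE; adjusted p = 0.0826)). Vcam1 had 3856 and 5197 in TF, 580.4 and 599.8 in TE, 5378 and 6579 in SF and 1785 and 1037 in SE and was called higher (1.43 ± 0.20 (SE; adjusted p = 0.000895)), with TF and SF both above the cultured cells.

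Genes of cells that the sort should exclude were also present in TF and unevenly so between its replicates. Ptprc, which encodes CD45, had 772 and 98.4 in TF, 0 in both TE libraries, 65 and 26.2 in SF and 0 in both SE libraries normalized counts and was set apart higher. Pecam1, which encodes CD31, had 849 and 84.9 in TF, 5.99 and 4.63 in TE, 818 and 1228 in SF and 33.6 and 16.3 in SE, so that TF replicate 1 was in the range of SF and TF replicate 2 was closer to the cultured cells. Pecam1 was called higher (3.19 ± 0.62 (SE; adjusted p = 0.00493)) but not without TF replicate 1 (0.72, adjusted p = 0.37). In bulk RNA a few cells with much of a transcript cannot be told apart from many cells with little of it.

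Markers of blood cells were the least even. All 12 haematopoietic markers were called higher (background 16.9%) and 7 were set apart (58.3%, background 8.37%). Their summed level was 9866 and 1078 in TF, 86.1 and 81.7 in TE, 955 and 790.2 in SF and 159 and 251 in SE normalized counts. Lyz2, a lysozyme of macrophages and neutrophils, had 2930.3 and 171 in TF against at most 122 elsewhere, and C1qa, a complement subunit made by macrophages, had 892 and 215 against at most 29.6. Without TF replicate 1, 5 of the 12 were called. Endothelial markers were called higher in 11 of 12, with none set apart, and their sums were 6061 and 2051 in TF, 89.1 and 130.3 in TE, 7534 and 9085 in SF and 154 and 178 in SE. TF replicate 1 thus approached SF in this list, with Cdh5, the cadherin of endothelial junctions, at 1689 and 354 in TF and 1778 and 1955 in SF.

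Markers of epithelia were much higher in TF than in any other group. All 13 tested were called higher and 12 were set apart, against 16.9% and 8.37% of all genes tested, and their median log2 difference was 7.55, or 5.82 with undetected groups at the limit. The summed level was 8649 and 2514 in TF, 21.7 and 25.4 in TE, 615 and 135 in SF and 206 and 71.2 in SE. Krt8, a keratin of simple epithelia, had 2084 and 695 in TF, 0 in both TE libraries, 25.5 and 0 in SF and 0 in both SE libraries, and TF was 109 times the SF mean. The adhesion molecule Epcam had 541 and 274 in TF and 0 to 33.1 elsewhere. Without TF replicate 1 the number called was 7.

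A list of secreted products of gut, glands and airways was drawn up after the leading genes had been seen, so its counts are a description only. Of 37 tested, 29 were called higher and 27 were set apart, and the summed level was 23302 and 7628 in TF, 92.9 and 112 in TE, 1172 and 236 in SF and 94.4 and 69.5 in SE. It included the airway mucin Muc5b (2332 and 1153 in TF, 10.5 to 280.3 elsewhere), the secreted airway protein Bpifb1 (653 and 504 in TF, 0 to 20.4 elsewhere) and the gastric lipase Lipf, which reached 42.8 and 561. Lipf was thus concentrated in TF replicate 2, whereas the gastric peptide Tff1 was concentrated in TF replicate 1 (384 and 29.5). Without TF replicate 1, 16 of the list were called higher.

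Summed levels of cartilage and fibro-adipogenic markers were higher in both fresh groups than in the cultured ones. For cartilage both TF sums lay above both SF sums, and Col2a1 was far lower in SF than in TF. Of 13 cartilage markers 12 were called higher and 7 were set apart, with sums of 13688 and 8192 in TF, 681 and 668 in TE, 7047 and 6897 in SF and 2254 and 1366 in SE, and 7 were called without TF replicate 1. Col2a1, the main collagen of cartilage, had 5842 and 2102 in TF, 17.2 and 10.8 in TE, 113 and 44.5 in SF and 6.44 and 4.29 in SE, 50.3 times the highest other group mean. Of 11 fibro-adipogenic markers 10 were called higher and 5 were set apart, with sums of 95133 and 105668 in TF, 794 and 815 in TE, 71667 and 127220.0 in SF and 1959.8 and 3238 in SE, so that both TF values lay within the SF range. Pdgfra, the receptor that defines these connective tissue cells, had 4158 and 4319.9 in TF, 8.99 and 3.08 in TE, 1438 and 2115 in SF and 40.1 and 21.5 in SE and was set apart. Decorin (Dcn), a proteoglycan of connective tissue, had 13515 and 12229 in TF and 9758 and 16119.6 in SF, and was not called against SF (0.15 ± 0.56 (SE; adjusted p = 0.883)).

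Other lineages gave mixed results, to be read against 16.9% of all genes tested called higher and 5.96% lower. Of 15 neural markers 6 were called higher, among them Dcx, Gfap, Map2, Sox1 and Sox2, and 2 lower, Nes and Stmn2, with 3 called higher without TF replicate 2. Nestin (Nes), which activated myogenic cells also express, had 4083 and 3829 in TF, 37654 and 36319 in TE, 1118 and 1479 in SF and 21361 and 25151 in SE and set the summed level, which was lower in TF than in the cultured groups. Of 12 Schwann and neural crest markers 4 were called higher (Mal, Ngfr, Pmp22 and Tfap2b) and 1 lower (Erbb3, not without TF replicate 2 or SF replicate 1), and of the defining genes Sox10 had 71.4 and 45.5 in TF and 68.8 and 51.3 in SF. Of 12 pericyte and smooth muscle markers 9 were called higher and 1 lower (Des), with sums of 38130.2 and 40977 in TF, 44632 and 44499.7 in TE, 49044 and 52541 in SF and 31057 and 54979.5 in SE that overlapped between groups. Of 8 bone markers 4 were called higher (Alpl, Dmp1, Ibsp and Phex), while osteopontin (Spp1) was highest in SE at 64897 and 20006 against 2837 and 1344 in TF.

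Endoderm markers were called higher in most cases (62.5%, background 16.9%), whereas the pluripotency genes Pou5f1 and Nanog were low. Of 8 endoderm markers tested, 5 were called higher (Alb, Foxa1, Gata6, Sox17 and Ttr), and 3 without TF replicate 1, with sums of 1244 and 896 in TF, 299.5 and 311 in TE, 385 and 275 in SF and 54.4 and 54.1 in SE. Ttr, a carrier of thyroid hormone made by liver and choroid plexus, had 89.6 and 486 in TF and at most 5.15 elsewhere. Of 8 pluripotency markers 2 were called higher (25%, background 16.9%). They were Klf4, at 10002 and 9543 in TF and 10545 and 13907 in SF, and Sox2, which had 345 and 209 in TF, 0 in both TE libraries, 15.3 and 9.12 in SF and 0 in both SE libraries and is also a neural gene. Pou5f1, the defining gene, had 10.4 and 0 in TF and was too low to be tested, and Nanog had 24.7 and 0. Of 7 cardiac markers 2 were called higher (Nkx2-5 and Ryr2) and 1 lower (Tnnt2, a troponin that embryonic skeletal muscle shares), which was not called without either TF or either SF library.

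**Figure D3:**
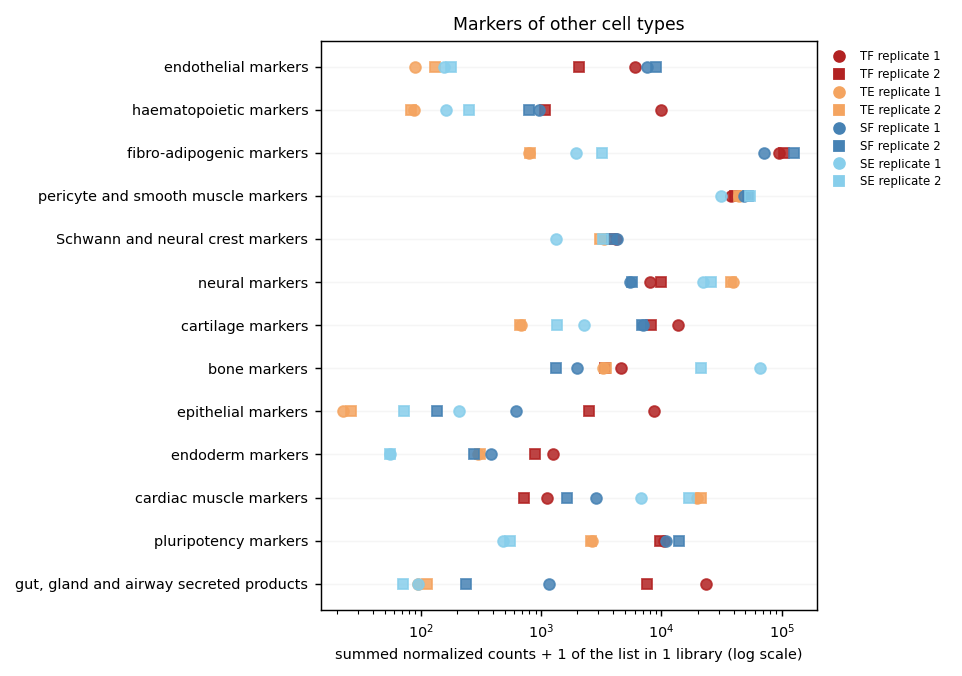
Summed normalized counts + 1 (log scale, horizontal axis) of each marker list (rows) in each library, with color for the group, circles for replicate 1 and squares for replicate 2. Epithelial markers and secreted products are higher in both TF libraries than in any other library, with TF replicate 1 above TF replicate 2, whereas fibro-adipogenic markers overlap with SF and endothelial markers are lower in both TF libraries than in both SF libraries.

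The chromosome Y genes of this list also differed between groups. Ddx3y had 915 and 959.7 in TF, 8.24 and 30.1 in TE, 3803 and 5153 in SF and 902 and 1068 in SE normalized counts, and 3 of 4 genes were called higher in the contrast with TE close to 0. Against SF the difference in Ddx3y was -2.10 ± 0.36 (SE; adjusted p = 0.00317), and the calls were lost without either TF library, while 1 was left without TE replicate 2.

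Among the factors that specify muscle, TF carried Pax7 but less Myod1 than the other groups. Of 14 specification factors tested, 6 were called higher (Dach1, Eya1, Meox1, Meox2, Pax7 and Six5) and 2 lower (Eya4 among them), with a median difference of -0.02 and 4 lower without SE replicate 2. The somite factor Meox1 had 426 and 564 in TF, 271 and 342 in TE, 168 and 101 in SF and 13.6 and 2.57 in SE and was set apart higher, although it was not called against TE (0.64 ± 0.50 (SE; adjusted p = 0.377)). Eya4, a transcriptional cofactor, had 627 and 616 in TF, 2133 and 2248 in TE, 664 and 736 in SF and 1414 and 1634 in SE, with TF just below SF. Pax3, the paralog of Pax7 that marks embryonic muscle precursors, was at 11.7 and 8.61 in TF and 5.99 and 0 in TE but 218 and 185 in SF and was not called. Pax3 was chosen for mention after its values were seen.

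The commitment and fusion factors changed in both directions. Of 15 tested, 2 were called higher (13.3%, background 16.9%; Myf5 and Nfatc2) and 5 lower (33.3%, background 5.96%; Jam2, Mef2a, Mymk, Myod1 and Tead4), of which Jam2, Mef2a and Myod1 were set apart. Jam2 was just within the threshold (-0.82 ± 0.26 (SE; adjusted p = 0.0498)). Neither Jam2 (-0.49 ± 0.31 (SE; adjusted p = 0.280)) nor Mef2a (-0.31 ± 0.27 (SE; adjusted p = 0.449)) was called against SF. Myf5, which precedes Myod1 in activation, had 802 and 1366 in TF, 144 and 64 in TE, 1482 and 1723 in SF and 75.8 and 118 in SE, so that the fresh groups stood above the cultured ones. Myog had 1328 and 1449 in TF, 11175 and 11841 in TE, 8.92 and 14.8 in SF and 3993 and 13510.4 in SE and was not called (0.40 ± 0.39 (SE; adjusted p = 0.506)), since TF lay between SF, where it was near 0, and the cultured groups. Its difference was 7.00 ± 0.64 (SE; adjusted p = 0.000179) against SF, -3.11 ± 0.48 (SE; adjusted p = 0.00124) against TE and -2.69 ± 0.47 (SE; adjusted p = 0.00277) against SE. Mef2a, a partner of the MYOD family, had 1428 and 1195 in TF, 5353 and 5486 in TE, 1832 and 1791 in SF and 5029.6 and 9188 in SE. The number called lower was 3 without TF replicate 1, 2 without TF replicate 2 and 8 without SE replicate 1, and that called higher was 4 without SE replicate 2.

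Structural genes of the sarcomere had summed levels of 61391 and 39303 in TF, 273341 and 269956 in TE, 24965 and 23404 in SF and 316286 and 608094 in SE normalized counts, so that TF lay below the cultured groups and above SF. Of 24 tested, 11 were called lower (45.8%, background 5.96%), with a median difference of -1.11. Only Des was set apart (4.17%, background 3.57%). Des, the muscle intermediate filament, had 6244 and 5494 in TF, 15094 and 15564 in TE, 12218 and 15251 in SF and 20934 and 27712 in SE, a difference of -1.53 ± 0.20 (SE; adjusted p = 0.000552). Its level in TF was also below SF (-1.07 ± 0.23 (SE; adjusted p = 0.00891)). The fast myosin Myh4 had 340.2 and 208 in TF, 338 and 345 in TE, 1782 and 1395 in SF and 825 and 2699 in SE, and TF was below SF (-2.37 ± 0.48 (SE; adjusted p = 0.00741)) while the difference from TE was not called (-0.37 ± 0.47 (SE; adjusted p = 0.592)). The slow myosin Myh7 had 253 and 157 in TF, 5691 and 6825 in TE, 87.9 and 59.3 in SF and 5546 and 19441 in SE. TF thus lay above SF and far below the cultured groups, but the difference from SF was not called (1.64 ± 0.55 (SE; adjusted p = 0.0550)). The cardiac and slow troponin Tnnc1 likewise had 259.7 and 127 in TF, 35.7 and 0 in SF and 4687 to 10902 in culture, and its call was lost without SF replicate 1 (adjusted p = 0.88). The count of sarcomere genes called lower was 5 without TF replicate 2 and 17 without SE replicate 1. Myosin genes share long stretches of sequence, so single values are uncertain.

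Genes of satellite cell quiescence were called higher in most cases, and their summed level was 53346 and 64029 in TF, 36945 and 37019 in TE, 84366 and 93473 in SF and 25559 and 22554 in SE, highest in SF. Of 20 tested, 14 were called higher (70%, background 16.9%) and 1 lower (Sdc4), with a median difference of 1.24, and 4 (20%, background 8.37%) were set apart. The calcitonin receptor Calcr, which helps to hold satellite cells at rest, had 534 and 801 in TF, 0 in both TE libraries, 1431 and 1428 in SF and 0 in both SE libraries. Chrdl2, a BMP antagonist, had 203 and 533 in TF, 0 in both TE libraries, 4334 and 5435 in SF and 0 and 12 in SE, so that TF lay well below SF (-3.57 ± 0.63 (SE; adjusted p = 0.00471)). Cd34 had 2377 and 2250.4 in TF, 10.5 and 13.9 in TE, 2547 and 3242 in SF and 14.3 and 3.43 in SE and was not called against SF (-0.17 ± 0.30 (SE; adjusted p = 0.74)). The 4 set apart were the Notch targets Hes1 and Heyl, the chemokine receptor Cxcr4 and the growth arrest gene Gas1. Against SF, Hes1 was called (adjusted p = 0.00808), whereas Heyl, Cxcr4 and Gas1 were not (adjusted p = 0.218, 0.0916 and 0.325). Gas1 had 2865 and 3005 in TF and 2696 and 2807 in SF, and Cxcr4 had 1209 and 714 in TF and 502 and 652 in SF. Heyl had 4014 and 5282 in TF, 1355 and 1575 in TE, 3181 and 3284 in SF and 230.3 and 626 in SE, and Hes1 had 904 and 1115 in TF, 544 and 523 in TE, 400.0 and 531 in SF and 602 and 416 in SE, with the call for Hes1 lost without TF replicate 2 (adjusted p = 0.088). Spry1, a feedback inhibitor of ERK signaling, had 2347 and 2693 in TF, 1107 and 1301 in TE, 3141 and 3343 in SF and 157 and 436 in SE and was called higher (1.29 ± 0.28 (SE; adjusted p = 0.00988)), but not without TF replicate 2 (adjusted p = 0.056). The call for Sdc4 was lost without either TF library or TE replicate 2.

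**Figure D4:**
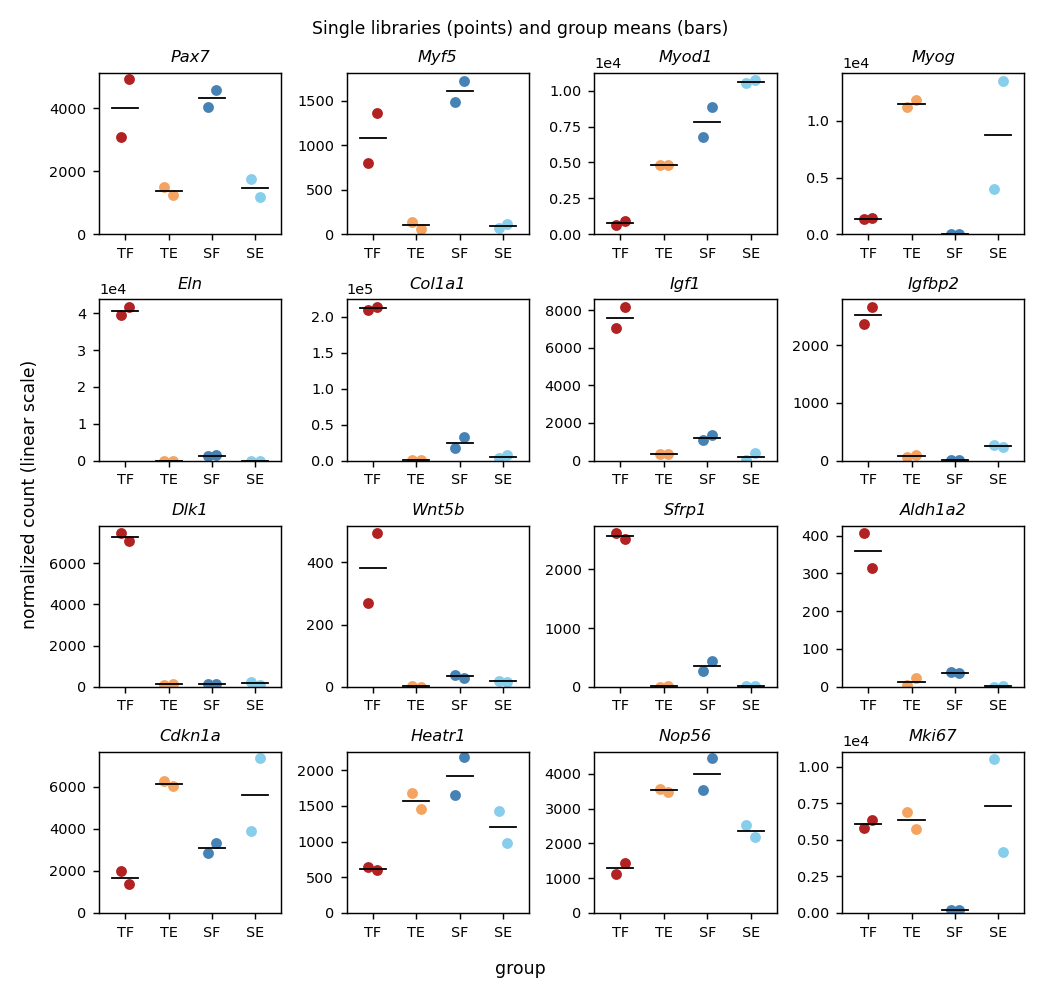
Normalized counts (linear vertical axis) of 16 genes in the 2 libraries of each group (points), with group means as bars. TF lies apart from the other groups for Eln, Col1a1, Igf1, Igfbp2, Dlk1, Wnt5b, Sfrp1 and Aldh1a2, below them for Myod1, Cdkn1a, Heatr1 and Nop56, and with SF for Pax7 and Myf5.

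Extracellular matrix genes had the largest share of members called higher among the gene programs examined. Of 35 matrix genes tested, 32 were called higher (background 16.9%) and 29 were set apart (background 8.37%), and the median log2 difference was 3.54. The summed level was 1394430.0 and 1468290.0 in TF, 125901 and 125148 in TE, 216887 and 325430.0 in SF and 140100.0 and 119380.0 in SE normalized counts, so the replicates of TF were close and the other libraries did not approach them. Eln (chromosome 5, 134702595 to 134747368), the elastin of stretchable tissue, had 39419 and 41665 in TF, 0 in both TE libraries, 1117 and 1453 in SF and 0 and 13.7 in SE, and TF was 31.6 times the SF mean. The fibrillar collagen Col11a1 had 6168 and 6229.5 in TF, 14.2 and 60.9 in TE, 307 and 267 in SF and 27.2 and 101 in SE, a difference of 6.16 ± 0.43 (SE; adjusted p = 9.53e-06). Fbn2, a fibrillin of embryonic microfibrils, had 7481 and 8189.5 in TF, 14.2 and 42.4 in TE, 279 and 90.1 in SF and 15 and 24.9 in SE, a difference of 7.41 ± 0.39 (SE; adjusted p = 1.76e-06).

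Periostin (Postn), a matrix protein of developing and injured tissue, had 18263 and 18744 in TF, 1896 and 1745 in SF and at most 148 in culture. Col15a1, a basement membrane collagen, had 48802 and 58920.0 in TF and 112 to 8393 elsewhere, and Col14a1 had 8538 and 8976 against 0 to 1713. The main collagen of connective tissue, Col1a1, was at 209379 and 213163 in TF and 121 to 32545 elsewhere, and is named after its values were seen. In all of these SF came nearest to TF. The fibro-adipogenic markers, several of which are matrix genes, had similar sums in TF and SF (given above), and their part in the matrix result was not tested.

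**Figure D5:**
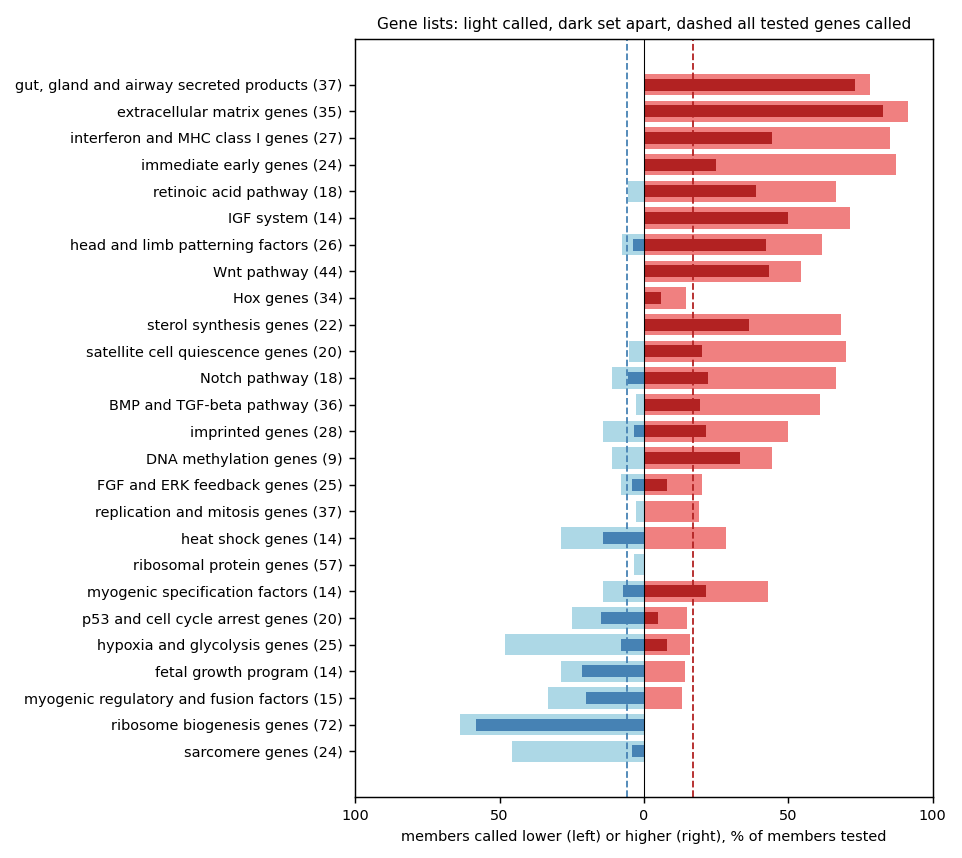
Share of the tested members of each gene list (number tested in parentheses) that was called higher in TF (right) or lower (left), in light color, and set apart, in dark color, with dashed lines at the shares of all tested genes that were called (16.9% and 5.96%). Matrix, secreted product, interferon and immediate early genes reach furthest to the right, and ribosome biogenesis genes, followed by hypoxia and glycolysis genes and sarcomere genes, furthest to the left.

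Patterning factors of the head and limb, not all of them factors of muscle, differed in many members. Of 26 tested, 16 were called higher (61.5%, background 16.9%) and 11 set apart higher (42.3%, background 8.37%). En1 and Tbx15 were called lower (7.69%, background 5.96%), and the median difference was 1.94. Tcf21, a factor of branchial arch muscle and connective tissue precursors, had 352 and 321 in TF, 10.5 and 12.3 in TE, 11.5 and 0 in SF and 0 in both SE libraries, and TF was 29.5 times the highest other group mean. Isl1, which marks the second heart field and some head muscle precursors, had 295 and 416 in TF, 28.5 and 52.4 in TE, 34.4 and 33.1 in SF and 5.01 and 3.43 in SE, a difference of 4.31 ± 0.40 (SE; adjusted p = 5.87e-05). Twist1, a mesenchymal factor, had 678 and 639 in TF, 21.7 and 60.1 in TE, 131 and 103 in SF and 0 and 6.01 in SE (4.79 ± 0.53 (SE; adjusted p = 0.00019)), and Tbx2 had 563 and 472 in TF, 78.6 and 100.2 in TE, 70.1 and 144 in SF and 72.2 and 63.5 in SE (2.60 ± 0.32 (SE; adjusted p = 0.000334)). Msc (musculin), a further factor of branchial muscle, went another way, with 501 and 471 in TF, 0 in both TE libraries, 2115 and 2820.0 in SF and 0 in both SE libraries, so that TF stood above culture but below SF (-2.19 ± 0.26 (SE; adjusted p = 0.00119)). Neither En1 nor Tbx15 was called when either TF library was left out.

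Hox genes, which give position along the body, were called about as often as genes at large. Of 34 tested, 5 were called higher (14.7%, background 16.9%), namely Hoxa3, Hoxa11, Hoxb2, Hoxb3 and Hoxd13, and Hoxa3 and Hoxd13 were set apart. The summed level was 1210.0 and 1038 in TF, 64.4 and 72.5 in TE, 3364 and 2599.9 in SF and 2949 and 2738 in SE, so that TF lay above TE and below both satellite cell groups. Hoxd13, of distal limbs, had 98.7 and 87.4 in TF, 26.8 and 0 in SF and 0 elsewhere. The number called was 3 without either TF library, TE replicate 1 or SF replicate 2.

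The fetal growth genes, which are active in embryonic and tumor cells, were more often lower than higher. Of 14 tested, 2 were called higher (Mycn and Sox4, and 1 without TF replicate 1 or either TE library) and 4 lower (Hmga1, Hmga2, Igf2bp2 and Sox11), with a median difference of -0.61. Igf2bp2, which binds messenger RNAs of the IGF pathway, had 423 and 432 in TF, 1996 and 1873 in TE, 787 and 942 in SF and 2164 and 1813 in SE, a difference of -1.78 ± 0.17 (SE; adjusted p = 8.19e-05). Sox11, a factor of embryonic progenitors, had 1592 and 1091 in TF, 6610.0 and 6357 in TE, 2057 and 2430.0 in SF and 3143 and 3065 in SE, a difference of -1.39 ± 0.19 (SE; adjusted p = 0.000697). The difference of Sox11 from SF was not called (-0.59 ± 0.21 (SE; adjusted p = 0.0761)). Mycn was called because SE had 0 in both libraries, and TF (103 and 108) was otherwise within or below the range of TE and SF.

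The insulin-like growth factor (IGF) system, which drives growth of fetal and regenerating muscle, was higher as a group. Of 14 tested, 10 were called higher (71.4%, background 16.9%) and 7 were set apart (50%, background 8.37%), with a median difference of 2.03. Among the ligands, Igf1 had 7049.8 and 8167 in TF, 356 and 375 in TE, 1101 and 1338 in SF and 42.9 and 378 in SE, a difference of 4.09 ± 0.48 (SE; adjusted p = 0.00028). Igf2 had 80959 and 91152 in TF, 127570.0 and 128907 in TE, 2048 and 2136 in SF and 16827 and 47878 in SE and was called higher (2.09 ± 0.30 (SE; adjusted p = 0.000982)), but TF lay between the satellite cell groups and TE and differed from TE by -0.63 ± 0.41 (SE; adjusted p = 0.276). Among the receptors, Igf1r was not called (1984 and 2734 in TF, 2902 to 4663 elsewhere), while Igf2r, which clears IGF2, was set apart at 12322 and 13514 against 5816 to 9282.

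Of the binding proteins, which hold IGFs outside the cell, Igfbp2, Igfbp4, Igfbp5 and Igfbp7 were higher in TF than in every other library, with SF the lowest group for Igfbp2 and the nearest to TF for the rest. Igfbp2 (chromosome 1, 72824480 to 72852474) had 2377 and 2663 in TF, 64.4 and 88.7 in TE, 6.37 and 5.7 in SF and 270.4 and 237 in SE, a difference of 5.70 ± 0.18 (SE; adjusted p = 1.75e-07). Igfbp4 had 18667 and 21584 in TF, 1200.4 and 1217 in TE, 3757 and 5703 in SF and 592 and 935 in SE (3.64 ± 0.20 (SE; adjusted p = 2.69e-06)), and Igfbp5, a target of myogenic factors in muscle, had 86128 and 116887 in TF, 11887 and 12341 in TE, 29808 and 34434 in SF and 11012 and 15589 in SE (2.58 ± 0.19 (SE; adjusted p = 1.56e-05)). Igfbp7 had 7724 and 7672 in TF and 206 to 3729 elsewhere. Igfbp6 was called higher although SF, at 4182 and 4341, lay above TF, at 708 and 727.

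Imprinted genes, expressed from 1 parental copy and often active in fetal growth, gave 14 of 28 called higher (50%, background 16.9%) and 6 set apart higher (21.4%, background 8.37%). Called lower were 4 (14.3%, background 5.96%), namely Airn, Grb10, Peg3 and Usp29. Dlk1 (chromosome 12, 109452485 to 109463336), a membrane protein related to Notch ligands and found in fetal and regenerating muscle, had 7445 and 7088 in TF, 91.4 and 141 in TE, 124 and 128 in SF and 227 and 109 in SE, a difference of 5.77 ± 0.24 (SE; adjusted p = 7.55e-07). The amino acid transporter Slc38a4 had 697 and 795 in TF, 8.24 and 0 in TE, 115 and 161 in SF and 0 in both SE libraries, with TF 5.42 times the SF mean. Ndn (necdin), which aids survival of myogenic cells, had 765 and 829 in TF, 173 and 144 in TE, 308 and 287 in SF and 32.9 and 33.5 in SE (2.80 ± 0.20 (SE; adjusted p = 1.25e-05)). Sgce, a member of the dystrophin-associated sarcoglycans, had 1266 and 1592 in TF, 576 and 433 in TE, 344 and 493 in SF and 211 and 275 in SE (1.97 ± 0.21 (SE; adjusted p = 0.000136)). Magel2 was set apart at 46.7 and 49.2 in TF, but its call was lost when any library other than SF replicate 1 was left out (adjusted p between 0.059 and 0.18). The number called lower was 1 without TF replicate 1 and 2 without TF replicate 2.

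Genes of the Wnt pathway, which patterns the embryo and directs satellite cell self-renewal, were raised at several levels. Of 44 tested, 24 were called higher (54.5%, background 16.9%) and 19 set apart (43.2%, background 8.37%), with a median difference of 1.93. Of the ligands, Wnt5b had 270.0 and 493 in TF, 3.74 and 0 in TE, 36.9 and 29.6 in SF and 20 and 15.4 in SE (5.19 ± 0.57 (SE; adjusted p = 0.000171)) and Wnt5a had 1015 and 1109 against 104 to 441. Of the secreted inhibitors, Sfrp1 had 2617 and 2519.8 in TF, 3.74 and 18.5 in TE, 268 and 440.2 in SF and 17.2 and 6.87 in SE (6.16 ± 0.36 (SE; adjusted p = 3.43e-06)), Frzb had 104 and 153 against 0 to 14, and Wif1 had 357 and 341 against 0 to 54.8. Receptor genes included Fzd10, at 46.7 and 81.2 in TF with counts elsewhere only in SF replicate 1 (not called without TF replicate 2, adjusted p = 0.14). Of the feedback targets, Axin2 had 541 and 406 in TF, 123 and 127 in TE, 185 and 137 in SF and 32.2 and 30 in SE, whereas Lef1 was not called and was higher in culture (74 and 34.5 in TF, 537 and 481 in TE, 141 and 16 in SF and 314 and 178 in SE). Wnt5a, Axin2 and Lef1 were picked after their values were seen.

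The retinoic acid pathway, which acts on limb and head mesenchyme, gave 12 of 18 called higher (66.7%, background 16.9%) and 7 set apart (38.9%, background 8.37%). Crabp2 was the 1 called lower (5.56%, background 5.96%), and the median difference was 2.06. The enzymes that make retinoic acid were among them, with Aldh1a2 at 406 and 315 in TF, 4.49 and 22.4 in TE, 39.5 and 35.3 in SF and 0 and 1.72 in SE and Aldh1a3 at 267 and 203 against 0 to 37.6. Aldh1a1, another such enzyme, had 743 and 795 in TF and 939 and 1041 in SF and was not called against SF (-0.21 ± 0.30 (SE; adjusted p = 0.672)). The carrier proteins diverged, with Crabp1 at 98.7 and 137 against 0 to 7.15, while Crabp2 was at 129.8 and 135 in TF and 1284 and 1318 in TE.

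The BMP and TGF-beta pathway, which restrains muscle differentiation and builds connective tissue, gave 22 of 36 called higher (61.1%, background 16.9%) and 7 set apart (19.4%, background 8.37%). The muscle growth inhibitor Mstn was the 1 called lower (2.78%, background 5.96%). Of the ligands, Tgfb2 had 3281 and 4102 in TF, 805 and 904 in TE, 1282 and 1648 in SF and 787 and 1147 in SE (1.81 ± 0.18 (SE; adjusted p = 9.55e-05)), and Bmp6 had 2691 and 3728 in TF, 87.6 and 126 in TE, 1921 and 2059 in SF and 15 and 8.58 in SE (4.57 ± 0.20 (SE; adjusted p = 9.07e-07)), with SF nearest. Of the receptors, Tgfbr2 had 5326 and 6225 in TF, 856 and 1018 in TE, 1846 and 2159.8 in SF and 1139 and 668 in SE (2.30 ± 0.19 (SE; adjusted p = 2.80e-05)) and Bmpr1b had 698 and 489.7 against 57.3 to 166, while Tgfbr3 was near 0 in culture and highest in SF, at 9854 and 11391 against 2624 and 2971 in TF. Without TF replicate 1 the number called higher was 11, and Tgfb1 fell to an adjusted p of 0.052. The call for Mstn was lost without either TF library, SF replicate 1 or SE replicate 2.

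Notch genes, which keep satellite cells undifferentiated, gave 12 of 18 called higher and 2 lower (Jag2 and Rbpj, and 1 without either TF library), with 4 set apart higher and 1 lower. The shares called and set apart higher were 66.7% (background 16.9%) and 22.2% (background 8.37%). The summed level was 34716 and 43239 in TF, 17767 and 17748 in TE, 41403 and 48580 in SF and 15280 and 15353 in SE, so that TF and SF overlapped above culture. Dtx1, a regulator of the receptor, had 152 and 303 in TF, 0 in both TE libraries, 80.3 and 2.28 in SF and 0 in both SE libraries, and Hey2, a target, had 149 and 132 in TF, 0.749 and 0 in TE, 103 and 117 in SF and 0 and 5.15 in SE. Neither Dtx1 nor Hey2 was called against SF (adjusted p = 0.193 and 0.766). Rbpj, the transcription factor of the pathway, was set apart lower at 2058 and 1898 in TF, 4098 and 4068 in TE, 2887 and 3435 in SF and 3259 and 3350.1 in SE, a difference of -0.80 ± 0.15 (SE; adjusted p = 0.00452), but was not called without either TF library (adjusted p = 0.053 and 0.083). Dll4 and Notch4, which endothelial cells express strongly, had 399 and 94.7 and 258 and 56.6 in TF, higher in TF replicate 1 as the endothelial markers were. In SF, Dll4 had 255 and 213 and Notch4 had 255 and 157. The part of Dll4 and Notch4 in the result was not tested.

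FGF and ERK feedback genes gave 5 of 25 called higher (Fgf1, Fgf10, Fgfr1, Fgfr2 and Spry1) and 2 lower (Dusp4 and Fgf5), a share near the background. Fgfr2 had 663 and 491 in TF, 12 and 31.6 in TE, 176 and 270.3 in SF and 61.5 and 61.8 in SE, a difference of 3.13 ± 0.34 (SE; adjusted p = 0.000175). Fgf10, a ligand of limb and branching epithelium, had 114 and 213 against 0.749 to 77.5 (not called without TF replicate 2, adjusted p = 0.066). The number called higher was 3 without TF replicate 1, 1 without TF replicate 2, and 8 without either SE library, and that called lower was 1 without either TF library or SF replicate 2.

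Immediate early genes, which respond within minutes to stimuli including tissue dissociation, set both fresh groups apart from culture. Of 24 tested, 21 were called higher (87.5%, background 16.9%) and 6 were set apart (25%, background 8.37%). The summed level was 270853 and 274500.0 in TF, 18900.0 and 18155 in TE, 336597 and 391667 in SF and 16458 and 15139 in SE normalized counts. Fos had 32693 and 35785 in TF, 246 and 189.6 in TE, 24695 and 28541 in SF and 187 and 189 in SE, so that TF exceeded SF by 0.52 ± 0.21 (SE; adjusted p = 0.1), which did not pass the threshold. Egr2 had 4186 and 4889.6 in TF, 130.3 and 75.6 in TE, 2669 and 2756 in SF and 119 and 162 in SE, with TF above SF by 0.90 ± 0.26 (SE; adjusted p = 0.0312). Fosb had 33356 and 36571 in TF and 41769 and 47176 in SF, and Zfp36 had 14762 and 14725 and 17286 and 20241, so that neither was higher in TF than in SF.

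Some heat shock genes, among them Hspa1a and Dnajb1, were also higher in both fresh groups than in culture. Hspa1a had 19978 and 17548 in TF, 0 and 25.4 in TE, 54728 and 57336 in SF and 82.3 and 39.5 in SE, and Dnajb1 had 5372 and 5336 in TF, 369.9 and 345 in TE, 9536 and 9414 in SF and 409 and 408 in SE, with SF above TF. Hspa1a and its near-identical copy Hspa1b cannot be told apart with certainty. Of 14 tested, 4 were called higher (28.6%, background 16.9%), namely Dnaja1, Dnajb1, Hspa1a and Hspa1b. Another 4 were called lower (28.6%, background 5.96%), namely Cryab, Hspb1, Hspb8 and Hspd1. The chaperone Cryab, abundant in muscle, had 592 and 867 in TF, 2106 and 2225 in TE, 3036 and 3644 in SF and 1280.3 and 2271 in SE and was set apart lower (-1.66 ± 0.26 (SE; adjusted p = 0.00163)). The number called lower was 2 without TF replicate 1 and 1 without TF replicate 2.

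Interferon-responsive and MHC class I genes were high in both fresh groups. Of 27 tested, 23 were called higher (85.2%, background 16.9%) and 12 set apart (44.4%, background 8.37%), with a median difference of 2.69. The summed level was 20872 and 21504 in TF, 3168 and 2963 in TE, 24472 and 27948 in SF and 2093 and 2669.6 in SE. Usp18, which ends interferon signaling, had 312 and 469 in TF, 11.2 and 1.54 in TE, 71.3 and 19.4 in SF and 0 and 0.858 in SE, and Ifit3, an interferon-induced antiviral gene, had 618 and 1102 in TF, 6.74 and 6.17 in TE, 280.3 and 314 in SF and 0 and 2.57 in SE. Bst2 (tetherin) had 256 and 378 in TF, 1.5 and 6.17 in TE, 68.8 and 19.4 in SF and 5.72 and 6.01 in SE (5.00 ± 0.57 (SE; adjusted p = 0.000228)), and Oasl2 had 705 and 812 against 0 to 289.6. Both SF sums lay above both TF sums, and H2-K1, an MHC class I gene, had 3992 and 5056 in SF against 1219 and 1174 in TF. The haematopoietic sums were 9866 and 1078 in the TF replicates, and their part in these values was not tested.

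Sterol synthesis genes, which respond to cholesterol supply, gave 15 of 22 called higher (68.2%, background 16.9%) and 8 set apart (36.4%, background 8.37%), with a median difference of 1.34. Over the whole list the summed level was 20043 and 22931 in TF, 7167 and 7119.6 in TE, 19621 and 21938 in SF and 6839 and 8318 in SE, so that TF and SF overlapped and both lay above culture. Hmgcs1, an early enzyme of the route, had 2527 and 3262 in TF, 609.6 and 714 in TE, 904 and 1299 in SF and 457 and 592 in SE (2.02 ± 0.19 (SE; adjusted p = 5.79e-05)), and Fdps had 915 and 1221 in TF, 288 and 197 in TE, 420.4 and 307 in SF and 348 and 233 in SE (1.88 ± 0.23 (SE; adjusted p = 0.000376)). Stard4, a cholesterol carrier, had 654 and 840.4 against 73.8 to 302. Hypoxia and glycolysis genes were more often called lower, in 12 of 25 (48%, background 5.96%), with 2 set apart lower (8%, background 3.57%). Those called higher numbered 4 (16%, background 16.9%; Aldoc, Ndrg1, Pfkfb3 and Slc2a3), of which 2 were set apart. The summed level of this list was 55494 and 50449 in TF, 79401 and 83135 in TE, 48863 and 59756 in SF and 151264 and 153313 in SE, so that both TF values lay within the SF range. Eno1, a glycolytic enzyme, had 2626 and 1950.2 in TF, 6100.1 and 6835 in TE, 1227 and 1398 in SF and 25528 and 23607 in SE, so that SE was far above all others and TF above SF. Vegfa, a hypoxia target, had 2603 and 2412 in TF, 4403 and 4806 in TE, 4153 and 5056 in SF and 3711 and 4841 in SE and was set apart lower (-0.82 ± 0.18 (SE; adjusted p = 0.00851)), though not without either TF library (adjusted p = 0.068 and 0.10). The number called lower was 7 without TF replicate 1 and 1 without TF replicate 2.

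Genes of replication and mitosis placed TF with the cultured groups. Of 37 tested, 7 were called higher (18.9%, background 16.9%) and 1 lower (Rrm1), and none was set apart. Mki67, the proliferation marker, had 5788 and 6327 in TF, 6929 and 5727 in TE, 229 and 236 in SF and 10503 and 4177 in SE. It differed from SF by 4.86 ± 0.41 (SE; adjusted p = 0.000143), from TE by -0.12 ± 0.35 (SE; adjusted p = 0.83) and from SE by -0.31 ± 0.35 (SE; adjusted p = 0.559). Ccna2, a cyclin of S and G2 phase, had 759.5 and 661 in TF, 758 and 770.2 in TE, 40.8 and 50.2 in SF and 1254 and 624 in SE, with the same order. The count called higher was 1 without TF replicate 1, 3 without TF replicate 2 or either TE library, and 13 without SE replicate 1.

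Among genes of p53 and cell cycle arrest, 3 of 20 were called higher (15%, background 16.9%; Cdkn1b and Sesn1 among them) and 5 lower (25%, background 5.96%; Aen, Cdkn1a, Eda2r, Mdm2 and Sesn2). The cell cycle inhibitor Cdkn1a had 1972 and 1376 in TF, 6253 and 6035 in TE, 2842 and 3323 in SF and 3897 and 7361 in SE and was set apart lower (-1.48 ± 0.27 (SE; adjusted p = 0.00352)), with SF nearest. Its difference from SF was not called (-0.72 ± 0.30 (SE; adjusted p = 0.111)). The p53 target Aen had 591 and 551 in TF, 1576 and 1387 in TE, 995 and 1226 in SF and 1601 and 1242 in SE (-1.19 ± 0.18 (SE; adjusted p = 0.00139)). The number called lower was 3 without TF replicate 2 and 8 without SF replicate 2 or SE replicate 2.

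Of 9 DNA methylation genes 4 were called higher (44.4%, background 16.9%), namely Dnmt3a, Tet1, Tet2 and Tet3. Tdg, which removes oxidized and mismatched bases, was the 1 called lower (11.1%, background 5.96%). Dnmt3a (chromosome 12, 3801559 to 3914443), which sets new methylation, had 2694 and 2327 in TF, 608 and 759 in TE, 1208 and 1159.7 in SF and 551 and 625 in SE and was set apart (1.71 ± 0.15 (SE; adjusted p = 3.50e-05)). Tet1, which oxidizes methylated cytosine, had 692 and 612 in TF, 96.6 and 77.1 in TE, 422 and 289.6 in SF and 238 and 293 in SE and was also set apart (1.72 ± 0.23 (SE; adjusted p = 0.000564)). Tet3, the third gene set apart, had 3077 and 2832 in TF, 2685 and 2429 in TE, 2079 and 2178 in SF and 1051 and 1086 in SE and missed the threshold without TF replicate 1 (adjusted p = 0.080).

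Most genes examined that build ribosomes were called lower, whereas genes of the finished ribosome were not (2 of 57, or 3.51%, background 5.96%). A list of 72 ribosome biogenesis genes was drawn up after many of them had been seen among the genes set apart lower, so its counts are a description. Of these, 46 were called lower (background 5.96%) and 42 set apart lower (background 3.57%), and the median difference was -0.83. The summed level was 62141 and 65306 in TF, 120739 and 120445 in TE, 102501 and 123402 in SF and 109668 and 87463 in SE, with both TF libraries below all others. Nop56, a core protein of the particles that modify ribosomal RNA, had 1115 and 1443 in TF, 3571 and 3467 in TE, 3535 and 4461 in SF and 2519 and 2186 in SE (-1.30 ± 0.18 (SE; adjusted p = 0.000798)). Heatr1, a factor of early ribosomal RNA processing, had 639 and 603 in TF, 1679 and 1452 in TE, 1645 and 2177 in SF and 1429.8 and 986 in SE (-1.28 ± 0.21 (SE; adjusted p = 0.00187)).

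Polr1b, a subunit of RNA polymerase I, had 139 and 188 in TF, 368 and 357 in TE, 399 and 440.2 in SF and 398 and 309 in SE (-1.18 ± 0.26 (SE; adjusted p = 0.00976)), and these 3 genes were picked as examples after their values were seen. Without TF replicate 1 the number called lower was 19, and without TF replicate 2 it was 25. Of the 61 genes of this list with a promoter in the table, 21.3% held CACGTG, against 9.51% of all promoters. The ribosomal RNA precursor Rn45s also had its lowest shares in TF (given above), and their part in the result was not tested. With Rn45s left out before scaling the contrast called 1199 genes lower in place of 1048.

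Of 57 ribosomal protein genes, 2 were called lower (3.51%, below the background of 5.96%), with a median difference of 0.01. These were Rpl30 and Rpl34, and neither was set apart, since TE had levels similar to TF (Rpl34 was at 476 and 356 in TF, 243 and 214 in TE, 2375 and 3134 in SF and 4127 and 4147 in SE). Both have processed copies in the genome among which reads may have been divided.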

How the data were processed

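RNA was extracted with the RNeasy Mini kit and libraries were made with the SMARTer Stranded Total RNA-Seq Pico v2 kit. The authors deposited 1 table of estimated counts for 24980 gene symbols in 8 libraries, not normalized. The submitters' processing notes name CASAVA, kallisto 0.44.0 and the builds GRCm38 and mm10, and the gene model is not given in the sources used here. Such estimates divide reads among similar transcripts, and 74.4% to 84.4% of the values in a library were whole. Every column matched the title of 1 sample. The contrast, the gene lists and the marker lists were chosen with earlier results of these data known, and 2 lists (ribosome biogenesis, and gut, gland and airway secreted products) after the values were seen.

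Counts were rounded to whole numbers, filtered with filterByExpr (17582 genes kept), scaled by TMM and tested with edgeR 4.0.16 (estimateDisp, glmQLFit, glmQLFTest, R 4.3.3) in a single model of the 4 groups with no replicate term, with a common dispersion of 0.233. The spread was estimated over 2 libraries a group, described as biological replicates. Normalized counts for display used the size factors of DESeq2 1.42.0. The limit of detection was 3 counts a library, or 2.15 to 3.89 normalized counts. The scripts were tested on simulated data. Lists were described by counts and medians beside those of all genes tested, with no set test. Genes were named by rule, namely the 15 in each direction set apart with the largest gap on the log2(normalized count + 1) scale and a mean of at least 50 on the higher side, up to 4 set apart and up to 4 called with the largest change in each list, the sort markers, Pax7, Myod1, Myog, Spry1, Igf2 and H19, and the 3 highest of each marker list, with some of these genes not reported here. Symbols of 98.2% of the tested genes matched RefSeq. Alternatives were median-ratio scaling, no filter, DESeq2, glmTreat, a replicate block, the 6 other libraries as 1 group, the contrast without TE, SF or SE, Rn45s left out and each library left out.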

Additional observations from a re-analysis of the deposited data

How the results depend on the processing

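Leaving out 1 library at a time, the genes called higher numbered 1731 to 3172, those called lower 443 to 1245, those set apart higher 1078 to 1658 and those set apart lower 334 to 738, in place of 2966, 1048, 1471 and 627. The lone library left in a group was assumed to vary like the other groups. With the 6 other libraries as 1 group the counts were 31, 1, 31 and 1, because the differences among TE, SF and SE then count as spread. DESeq2 gave 1603 genes lower, and its other counts stayed within 1.5 times. glmTreat, which tests against the fold threshold, gave 665 lower and 423 set apart lower. The contrast without SF gave 1985 lower, and the cause was not tested. It gave 3376 set apart higher and 1897 set apart lower, but here TF had to lie beyond the TE and SE libraries only. Without TE the genes set apart numbered 1415 higher and 663 lower, and without SE 1433 and 607. In these settings too the libraries of the group left out were not compared, so these counts rest on a looser definition than 1471 and 627. Of the 627 genes set apart lower, 423 were set apart under glmTreat, 627 under DESeq2, and 542 under the replicate block. Replicate numbers did not pair the libraries (correlations of deviations between -0.026 and 0.075), and a replicate block gave 2726 higher, 942 lower, 1389 set apart higher and 549 set apart lower.

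Of the 205 named genes, 8 changed sign with the 6 libraries as 1 group, namely Chrdl2 (-1.99), H19 (-4.53), Msc (-0.60), Gsn (-0.63), Tgfbr3 (-0.18), Map2 (-0.086), Ddx3y (-0.84) and Uty (-0.51). Without TE in the contrast the log2 difference was -1.78 for H19, 0.70 for Tnnt2, -1.10 for Ddx3y, -0.54 for Eif2s3y and -1.06 for Uty. Without SE it was -0.49 for Mycn, 1.59 for Spp1 and 0.35 for Tnnt2, and without SF it was -0.078 for Gins2, -0.21 for Mki67, -0.30 for Ccna2, -0.22 for Mcm2 and -2.90 for Myog. These genes have a TF level between those of other groups, so the sign depends on which groups are averaged. With 1 TF library left out, 34 (replicate 1) or 32 (replicate 2) of the 205 lost their call, and with 1 library of another group left out 3 to 8 did. Of 1440 counts of list members recomputed under the alternatives, 1212 stayed within 1.5 times and 228 did not.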
